A study of Mus musculus with 31 samples.

Results

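The genes described here are 36 genes of the type I interferon response, taken by gene symbol from a list of regulators, viral RNA and DNA sensors, antiviral effectors and enzymes of protein modification that interferon induces. The array measured 34 of the 36 with at least 1 probe set naming that gene alone, among 18193 genes measured in that way. Isg15, which encodes a ubiquitin-like modifier, had only a probe set shared with another gene symbol, and Ifi44 had none naming it alone, so neither is given a value. Membership rests on the gene symbol and on no measured threshold. They were followed in skin of C3H/HeJ mice with established AA, read here as alopecia areata, an autoimmune hair loss in which lymphocytes attack the hair follicle. Skin received topical PBS, the buffered saline control, or a JAK inhibitor known only by its code, jak1i or jak3i, and total RNA was hybridised to 1 Affymetrix array a sample. Each of the PBS, jak1i and jak3i arms had 3 arrays at 0, 6 and 12 weeks, and jak1i and jak3i had 2 arrays each at 24 weeks, which makes 31 arrays in 11 groups. All groups shared the strain and, by the series title, the disease, no transgene was named, and dose, age and the way the disease was started are not given in the sources used here. Replicates are described as biological, but nothing says if mice were sampled repeatedly. The p-values rest on the spread between arrays within the groups and treat the arrays as independent. Had mice been sampled repeatedly, comparisons between weeks would not meet that assumption.

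Type I interferons, the interferon-α family and interferon-β, bind a receptor of the chains Ifnar1 and Ifnar2, whose kinases Jak1 and Tyk2 phosphorylate Stat2 among other proteins. Stat2 and Irf9 are parts of the complex ISGF3, which binds the interferon-stimulated response element, a promoter motif with repeated GAAA, and switches on the genes described here. Interferon-γ uses another receptor, with Jak1 and Jak2, and acts mainly at a different promoter element, yet many genes answer both. In alopecia areata, cytotoxic T cells around the follicle release interferon-γ, and interferon-induced genes are known to be high in the affected skin.

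Values are the authors' log2 RMA values, in which 1 unit is a 2-fold step, and a level compares arrays for 1 probe set and not 1 gene with another. Differences are fitted log2 differences ± standard error from limma with 3 arrays a group unless stated. A gene is said to rise or fall where the adjusted p over all 18193 genes is under 0.05. In bulk skin, fewer cells of a type and less RNA per cell cannot be told apart. The keratinocyte markers Krt5, Krt14, Krt1, Krt10, Lor, Dsg1a, Trp63 and Dsp were high throughout, with means over the 31 arrays from 11.9 to 14.2, as a skin label requires, and 0 of the 8 passed in the comparisons of an inhibitor with PBS. Other lists varied within an arm. The hair shaft list, given as a mean relative to the 31-array mean, ranged from −3.23 to 3.69 within jak3i at 6 weeks alone. The skeletal muscle list was low in PBS at 12 weeks, at −6.21 to −2.93, against −0.39 to 1.07 in PBS at 6 weeks.

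After 6 weeks of jak1i, 22 of the 34 members were lower than in PBS skin of the same week and none was higher, while 1.22% of all genes were called lower. The largest fall was that of Oasl2, an OAS-like antiviral protein, at −3.14 ± 0.60, adjusted p = 0.0112, and the smallest difference that of Tor3a, an ATPase induced by interferon, at −0.11 ± 0.21, adjusted p = 0.821. The median difference of the members was −1.41, against 0.04 over all genes, and 20 members had fallen at least 2-fold, as had 0.665% of all genes. After 6 weeks of jak3i, 23 members were lower and none higher against 1.5% of all genes called lower, with a median of −1.53 (all genes 0.02). At least 2-fold falls were found in 22 members and in 0.907% of all genes. Both comparisons use the same 3 PBS arrays. All 34 fitted differences lay below 0 in each, against 42.7% and 45% of all genes. In 30 members the 3 jak1i arrays did not overlap the 3 PBS arrays, a separation seen in 18.5% of all genes, and in 30 members the jak3i arrays did not, against 15.6% of all genes.

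These 6-week counts depended on single arrays. The share of all genes called in the fits that follow is not given, so a lower count need not mean smaller differences of the members. For jak1i the count was 0 without jak1i replicate 1 and 0 without PBS replicate 3, 3 without PBS replicate 2 and 12 without jak1i replicate 3. For jak3i it was 7 without PBS replicate 3 and 13 without PBS replicate 2. When the compared arrays were fitted alone, with no pooling of the spread over the other groups, 2 members were called for jak1i and 4 for jak3i. The members not called at 6 weeks were for jak1i Cmpk2, Herc6, Ifit2, Ifit3, Isg20, Mx2, Oas3, Oasl1, Rsad2, Samd9l, Tor3a and Trim30a, of which Samd9l, with an adjusted p of 0.057, lay nearest the threshold. For jak3i they were Cmpk2, Ifit2, Ifit3, Isg20, Lgals3bp, Mx2, Oas3, Oasl1, Rsad2, Tor3a and Trim30a, with Mx2 nearest at an adjusted p of 0.0543.

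After 12 weeks, 31 of 34 members were lower in jak1i than in PBS, against 6.51% of all genes, with a median of −1.61 (all genes −0.03). Of these, 26 had fallen at least 2-fold, as had 2.26% of all genes. The 3 that did not pass were Cmpk2 (−1.0 ± 0.44, adjusted p = 0.126), Rsad2 (−1.36 ± 0.50, adjusted p = 0.0733) and Tor3a (−0.58 ± 0.21, adjusted p = 0.0702). Under jak3i 19 of 34 were lower at 12 weeks, against 7.28% of all genes, with a median of −1.04 (all genes −0.04), and 15 members and 1.65% of all genes had fallen at least 2-fold. No member was higher in either comparison. Fitted differences lay below 0 in 34 members for jak1i and 33 for jak3i, against 54.5% and 54.9% of all genes. The 12-week groups did not overlap in 33 members for jak1i, against 36.2% of all genes, and in 17 members for jak3i, against 38.3%. The jak1i count lay between 22 (without PBS replicate 3) and 32 when 1 array was left out. The jak3i count was 2 without jak3i replicate 1, 4 without PBS replicate 3, 7 without jak3i replicate 2 and 7 without PBS replicate 1, and it was 10 with the compared arrays fitted alone. For these refits the share of all genes called is not given, so a lower count need not mean smaller differences of the members. With PBS at 6 weeks as the control in place of PBS at 12 weeks, where muscle genes were low, 1 member was called for jak1i (29 at an unadjusted p under 0.05, median −1.22) and 3 for jak3i (15 at an unadjusted p under 0.05, median −0.75). In those comparisons 0.066% and 0.539% of all genes were called lower.

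**Figure D1:**
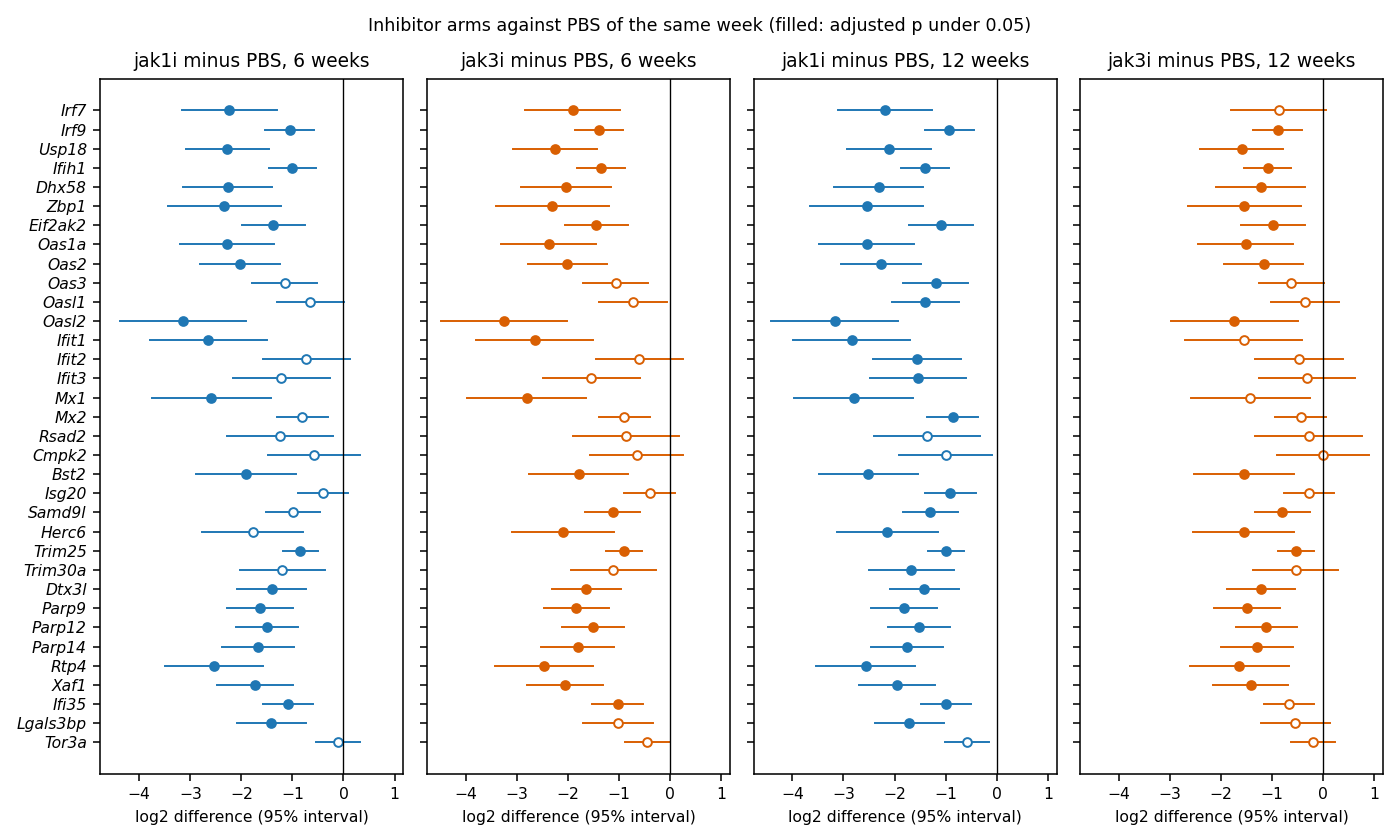
Fitted log2 differences of the 34 members (1 line each, by role) between an inhibitor and PBS of the same week, with 95% intervals as bars, at 6 and 12 weeks for jak1i and jak3i, each from 3 arrays a group. All points lie below 0 except that of Cmpk2 for jak3i at 12 weeks, at 0.0002, and the jak3i points at 12 weeks lie nearer to 0 than those of jak1i.

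No member passed the test within the PBS arm. Between 0 and 6 weeks 0 members passed and 0 had an unadjusted p under 0.05, and 0.0055% of all genes were called in either direction. Between 0 and 12 weeks 0 passed and 3 had an unadjusted p under 0.05 (Oas2, Oasl1 and Trim25, each higher), against 2.28% of all genes called, and 2 of 34 fitted differences were below 0, against 44.4% of all genes, with a median of 0.35. Before treatment, 0 members differed between jak1i and PBS (2 at an unadjusted p under 0.05) or between jak3i and PBS (0 at an unadjusted p under 0.05), and 0% of all genes were called in either comparison. The fitted difference was below 0 in 1 of 34 members in each arm, against 44.5% and 47.7% of all genes, with medians of 0.37 and 0.33.

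Against its own start, jak1i skin had 31 members lower at 6 weeks (median −1.77, 6.43% of all genes lower) and 30 lower at 12 weeks (median −1.56, 6.5% of all genes lower). Skin under jak3i had 29 lower at 6 weeks (median −1.82, 2.05% of all genes lower) and 14 lower at 12 weeks (median −0.96, 2.85% of all genes lower). The 6-week jak3i count was 17 without jak3i 0-week replicate 2 and 9 with the compared arrays fitted alone. The 12-week jak3i count was 0 without 0-week replicate 2, 12-week replicate 1 or 12-week replicate 2, 1 without 0-week replicate 1, 22 without 12-week replicate 3, and 8 with the compared arrays fitted alone. The change in an inhibitor arm minus the change in the PBS arm tests whether the arms moved differently. For jak1i at 12 weeks this difference was below 0 and called in 27 members (median −2.02), against 3.86% of all genes, and in 9 members without PBS 12-week replicate 3. For jak1i at 6 weeks it was called in 1 member, Dhx58 (−3.05 ± 0.60, adjusted p = 0.0458), against 0.11% of all genes, with 30 members at an unadjusted p under 0.05. For jak3i it was called in 0 members at 6 weeks (29 at an unadjusted p under 0.05, 0.0055% of all genes lower) and in 3 at 12 weeks, Parp9, Parp12 and Ifih1 (24 at an unadjusted p under 0.05, 1.96% of all genes lower). These small counts moved with single arrays, from 0 to 22 for jak1i at 6 weeks, reached without PBS 6-week replicate 1, and from 0 to 15 for jak3i at 12 weeks, reached without jak3i 12-week replicate 3. For most refits in this paragraph the share of all genes called is not given. A lower count in them therefore need not mean smaller differences of the members.

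**Figure D2:**
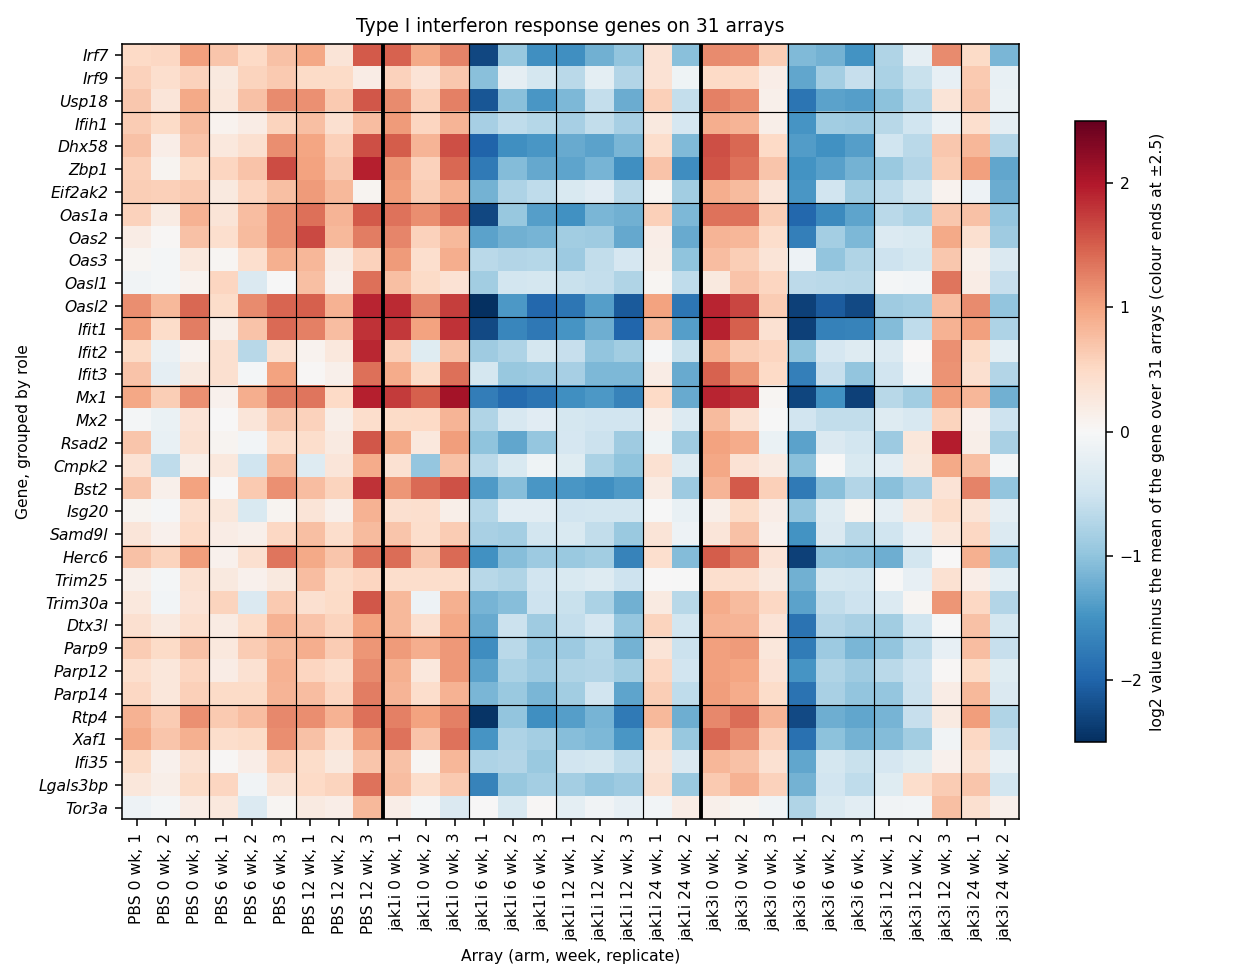
Value of each of the 34 members (lines, by role) in each of the 31 arrays (columns, by arm and week), as log2 difference from the mean of that member over the 31 arrays, with the colours limited to ±2.5. The PBS and 0-week columns are above the mean for most members, the 6-week inhibitor columns are below it for nearly all, and replicate 3 of jak3i at 12 weeks is higher than the other replicates of its group.

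Promoter sequences of members were read from RefSeq windows of the build GRCm38.p6, which run from 250 bases before to 50 bases after a gene's start. A window was found for 24 of the 34 measured members, and Usp18, Dhx58, Zbp1, Oas2, Mx1, Mx2, Parp9, Parp14, Rtp4 and Tor3a had no entry. The core of the interferon-stimulated response element, searched on both strands as 2 copies of GAAA with any 2 bases between them, was present in 9 of the 24 (37.5%), against 3.44% of all 32851 windows and 3.99% of the 27025 genes with a window. The core of the gamma-activated site, searched on both strands as TTCNNNGAA, was present in 6 of the 24 (25%), against 8.3% of all windows and 9.55% of the genes with a window. Both motifs were held by 3 members. In Bst2 matches of both motifs overlapped. The stretches below are shown because these members carry the first motif upstream of the start and belong to groups described next. Each has 60 bases and is written 5′ to 3′ on the strand of its gene, with capitals marking this motif or its reverse complement, 2 copies of TTTC with 2 bases between them:
Oas1a (chr5:120907526-120907585, minus strand): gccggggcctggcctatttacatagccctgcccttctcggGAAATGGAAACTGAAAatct
Oas3 (chr5:120777700-120777759, minus strand): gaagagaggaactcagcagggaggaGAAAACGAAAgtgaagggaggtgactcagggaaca
Ifit1 (chr19:34640769-34640828, plus strand): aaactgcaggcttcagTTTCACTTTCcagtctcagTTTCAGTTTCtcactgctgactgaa
Ifit3 (chr19:34583365-34583424, plus strand): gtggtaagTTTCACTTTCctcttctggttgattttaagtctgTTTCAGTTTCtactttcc
Rsad2 (chr12:26456538-26456597, minus strand): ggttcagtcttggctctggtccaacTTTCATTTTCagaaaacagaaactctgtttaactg
Bst2 (chr8:71537565-71537624, minus strand): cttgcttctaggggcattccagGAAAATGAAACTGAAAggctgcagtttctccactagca
Trim30a (chr7:104465195-104465254, minus strand): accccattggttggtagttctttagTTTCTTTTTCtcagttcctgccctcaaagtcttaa
In Ifit1 and Ifit3 the motif occurs in 2 separate copies, and in Oas1a and Bst2 overlapping matches form a longer run of capitals. A match is a description of the letters and no measured binding site. The 9 members with the motif had somewhat more negative median differences than the 15 without it, with overlapping ranges. The medians were −1.24 and −1.08 for jak1i and −1.44 and −1.13 for jak3i at 6 weeks. At 12 weeks they were −1.54 and −1.42 for jak1i and −0.98 and −0.80 for jak3i. These medians carry no test. Members without a window, Mx1, Rtp4, Zbp1 and Tor3a among them, are in neither set. In the RefSeq gene order, 6 pairs of members lie next to each other (Rsad2 and Cmpk2, Parp14 and Dtx3l, Dtx3l and Parp9, Ifit2 and Ifit3, Oasl2 and Oasl1, Oas2 and Oas3), which takes in 11 members.

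Of the 3 regulators, Irf7, Irf9 and Usp18, all 3 were lower than PBS in both arms at 6 weeks and in jak1i at 12 weeks, and 2 were lower in jak3i at 12 weeks. Usp18 encodes the protease that removes Isg15 from proteins and dampens signalling at the receptor. Usp18 in PBS skin read 9.71, 9.34 and 9.97 at 0 weeks, 9.31, 9.75 and 10.20 at 6 weeks and 10.18, 9.68 and 10.57 at 12 weeks. Under jak1i Usp18 read 10.20, 9.62 and 10.28 at 0 weeks, 6.88, 7.98 and 7.58 at 6 weeks, 7.90, 8.43 and 7.78 at 12 weeks and 9.62 and 8.42 at 24 weeks. Under jak3i Usp18 read 10.28, 10.18 and 9.15, then 7.19, 7.68 and 7.64, then 7.99, 8.31 and 9.35 and last 9.72 and 8.85 at the same times. Every 6- and 12-week array under either inhibitor lay below every PBS array of its week. The falls of Usp18 were −2.28 ± 0.39, adjusted p = 0.0067 for jak1i and −2.25 ± 0.39, adjusted p = 0.00498 for jak3i at 6 weeks, and −2.11 ± 0.39, adjusted p = 0.00275 and −1.59 ± 0.39, adjusted p = 0.0111 at 12 weeks. Irf9 encodes the DNA-binding subunit of ISGF3. Irf9 in PBS skin read 10.26, 10.09 and 10.25 at 0 weeks, 9.92, 10.24 and 10.34 at 6 weeks and 10.15, 10.15 and 9.86 at 12 weeks. Under jak1i Irf9 read 10.25, 10.02 and 10.35 at 0 weeks, 8.64, 9.46 and 9.25 at 6 weeks, 9.01, 9.44 and 8.94 at 12 weeks and 10.04 and 9.57 at 24 weeks. Under jak3i Irf9 read 10.18, 10.18 and 9.85, then 8.37, 8.83 and 9.11, then 8.89, 9.13 and 9.47 and last 10.34 and 9.49 at the same times. The levels of Irf9 spanned a narrow range in PBS skin, and no 6- or 12-week inhibitor array reached it. Its falls were the smallest of the 3 regulators in jak1i, at −1.05 ± 0.23, adjusted p = 0.0254 at 6 weeks and −0.92 ± 0.23, adjusted p = 0.0134 at 12 weeks. Under jak3i they were −1.39 ± 0.23, adjusted p = 0.00397 and −0.89 ± 0.23, adjusted p = 0.014.

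Irf7, the transcription factor that amplifies interferon-α production in plasmacytoid dendritic cells and others, varied most within jak3i at 12 weeks. Irf7 in PBS skin read 8.40, 8.42 and 8.92 at 0 weeks, 8.59, 8.40 and 8.64 at 6 weeks and 8.86, 8.22 and 9.43 at 12 weeks. Under jak1i Irf7 read 9.37, 8.85 and 9.15 at 0 weeks, 5.62, 6.94 and 6.36 at 6 weeks, 6.37, 6.69 and 6.91 at 12 weeks and 8.26 and 6.86 at 24 weeks. Under jak3i Irf7 read 9.09, 9.06 and 8.52, then 6.79, 6.71 and 6.40, then 7.14, 7.67 and 9.08 and last 8.37 and 6.76 at the same times. All 6 jak1i arrays at 6 and 12 weeks lay below 7, whereas replicate 3 of jak3i at 12 weeks, at 9.08, lay inside the PBS range. Irf7 was lower in jak1i at 6 weeks (−2.23 ± 0.45, adjusted p = 0.0153) and at 12 weeks (−2.18 ± 0.45, adjusted p = 0.00434) and in jak3i at 6 weeks (−1.91 ± 0.45, adjusted p = 0.0282). At 12 weeks the jak3i difference of −0.87 ± 0.45, adjusted p = 0.174 did not pass. Without that replicate, the highest of its group, the difference was −1.43 ± 0.43 with an adjusted p of 0.033.

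All 4 sensors, Ifih1, Dhx58, Zbp1 and Eif2ak2, were lower than PBS in each arm at 6 and at 12 weeks. Zbp1 senses left-handed double-stranded nucleic acid and can start inflammatory cell death. Zbp1 in PBS skin read 8.37, 7.83 and 8.25 at 0 weeks, 8.30, 8.48 and 9.40 at 6 weeks and 8.78, 8.44 and 9.71 at 12 weeks. Under jak1i Zbp1 read 8.87, 8.35 and 9.20 at 0 weeks, 6.01, 6.69 and 6.49 at 6 weeks, 6.46, 6.60 and 6.23 at 12 weeks and 8.49 and 6.22 at 24 weeks. Under jak3i Zbp1 read 9.34, 9.12 and 8.46, then 6.27, 6.41 and 6.59, then 6.85, 7.03 and 8.39 and last 8.79 and 6.47 at the same times. Under jak1i the 6- and 12-week arrays all lay below 7, far under the PBS arrays, while jak3i replicate 3 at 12 weeks came, at 8.39, close to the lowest PBS array of that week, 8.44. Zbp1 differed from PBS by −2.34 ± 0.53, adjusted p = 0.0312 and −2.54 ± 0.53, adjusted p = 0.00512 in jak1i at 6 and 12 weeks, and by −2.31 ± 0.53, adjusted p = 0.0269 and −1.55 ± 0.53, adjusted p = 0.0481 in jak3i. Ifih1 encodes MDA5, a cytoplasmic sensor of long double-stranded RNA. Ifih1 in PBS skin read 10.90, 10.75 and 11.06 at 0 weeks, 10.36, 10.45 and 10.82 at 6 weeks and 11.03, 10.66 and 11.04 at 12 weeks. Under jak1i Ifih1 read 11.34, 10.80 and 11.11 at 0 weeks, 9.43, 9.63 and 9.56 at 6 weeks, 9.44, 9.65 and 9.43 at 12 weeks and 10.51 and 9.84 at 24 weeks. Under jak3i Ifih1 read 11.18, 11.12 and 10.42, then 8.80, 9.40 and 9.38, then 9.56, 9.77 and 10.11 and last 10.69 and 10.05 at the same times. Its arrays of an inhibitor at 6 and 12 weeks were all below the PBS arrays. The falls of Ifih1 against PBS were −1.0 ± 0.22, adjusted p = 0.0288 and −1.40 ± 0.22, adjusted p = 0.000836 in jak1i, and −1.35 ± 0.22, adjusted p = 0.00397 and −1.09 ± 0.22, adjusted p = 0.00436 in jak3i. Dhx58, which encodes LGP2, a helicase that modulates MDA5 signalling, fell by more, with −2.27 ± 0.42, adjusted p = 0.0103 and −2.31 ± 0.42, adjusted p = 0.00228 in jak1i and −2.04 ± 0.42, adjusted p = 0.0133 and −1.23 ± 0.42, adjusted p = 0.0481 in jak3i. Eif2ak2, the kinase PKR that halts translation on double-stranded RNA, was −1.37 and −1.09 from PBS in jak1i and −1.44 and −0.98 in jak3i.

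The OAS group makes 2′-5′ oligoadenylates that activate RNase L, or in some of its proteins restrains viruses by other means. Of its 5 genes, Oas1a, Oas2, Oas3, Oasl1 and Oasl2, 3 were lower at 6 weeks in each arm, 5 in jak1i at 12 weeks and 3 in jak3i at 12 weeks. Oasl2 in PBS skin read 9.85, 9.49 and 10.10 at 0 weeks, 9.13, 9.86 and 10.13 at 6 weeks and 10.17, 9.54 and 10.57 at 12 weeks. Under jak1i Oasl2 read 10.53, 9.91 and 10.40 at 0 weeks, 5.76, 7.23 and 6.72 at 6 weeks, 6.88, 7.31 and 6.57 at 12 weeks and 9.69 and 6.87 at 24 weeks. Under jak3i Oasl2 read 10.59, 10.35 and 9.32, then 6.34, 6.60 and 6.42, then 7.79, 7.82 and 9.46 and last 9.87 and 7.69 at the same times. The lowest PBS array of Oasl2 was 9.13, and no jak1i array at 6 or 12 weeks exceeded 7.31. Under jak3i the 12-week replicate 3, at 9.46, stood apart from 7.79 and 7.82 and just under the lowest 12-week PBS array. Oasl2 fell the most of all members in 4 comparisons with PBS, by −3.14 ± 0.60, adjusted p = 0.0112 and −3.18 ± 0.60, adjusted p = 0.00283 in jak1i and by −3.25 ± 0.60, adjusted p = 0.00667 and −1.74 ± 0.60, adjusted p = 0.0475 in jak3i. With the replicate number as a block, the adjusted p of Oasl2 in jak3i at 12 weeks was 0.0526. Its paralogue and neighbour Oasl1, which represses translation of Irf7, had smaller differences. Oasl1 in PBS skin read 6.47, 6.50 and 6.65 at 0 weeks, 7.09, 6.20 and 6.56 at 6 weeks and 7.32, 6.69 and 7.94 at 12 weeks. Under jak1i Oasl1 read 7.32, 7.04 and 6.93 at 0 weeks, 5.69, 6.10 and 6.11 at 6 weeks, 6.01, 5.95 and 5.80 at 12 weeks and 6.61 and 5.92 at 24 weeks. Under jak3i Oasl1 read 6.81, 7.26 and 7.09, then 5.90, 5.89 and 5.86, then 6.50, 6.49 and 7.89 and last 6.75 and 5.99 at the same times. The 12-week jak3i arrays overlapped PBS, since replicate 3 read 7.89. Oasl1 passed only in jak1i at 12 weeks among these comparisons (−1.40 ± 0.32, adjusted p = 0.00804). The other differences of Oasl1 were −0.65 and −0.73 at 6 weeks and −0.36 in jak3i at 12 weeks. Oas1a and Oas2, which encode oligoadenylate synthetases, were lower in all of them, with Oas1a at −2.28 and −2.55 in jak1i and −2.38 and −1.52 in jak3i at 6 and 12 weeks. Oas3 passed only in jak1i at 12 weeks (−1.19).

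The IFIT proteins bind viral RNA that lacks host cap methylation and block its translation. Of Ifit1, Ifit2 and Ifit3, 1 was lower at 6 weeks in each arm, all 3 were lower in jak1i at 12 weeks and 0 in jak3i at 12 weeks. Ifit1 in PBS skin read 9.85, 9.28 and 10.10 at 0 weeks, 8.95, 9.52 and 10.24 at 6 weeks and 10.07, 9.58 and 10.62 at 12 weeks. Under jak1i Ifit1 read 10.59, 9.81 and 10.63 at 0 weeks, 6.57, 7.19 and 7.03 at 6 weeks, 7.34, 7.60 and 6.83 at 12 weeks and 9.60 and 7.44 at 24 weeks. Under jak3i Ifit1 read 10.73, 10.32 and 9.19, then 6.49, 7.13 and 7.14, then 7.74, 8.17 and 9.69 and last 9.84 and 8.04 at the same times. The jak1i arrays of Ifit1 at 6 and 12 weeks lay more than 1 unit below every PBS array, while jak3i replicate 3 at 12 weeks, at 9.69, lay inside the PBS range. Ifit1 fell by −2.65 ± 0.55, adjusted p = 0.0197 and −2.84 ± 0.55, adjusted p = 0.00352 in jak1i and by −2.65 ± 0.55, adjusted p = 0.0137 in jak3i at 6 weeks. The 12-week jak3i difference was −1.56 ± 0.55, adjusted p = 0.0544. Without replicate 3, the highest of its group, the difference was −2.14 with an adjusted p of 0.0197. Ifit2 in PBS skin read 8.64, 8.02 and 8.25 at 0 weeks, 8.56, 7.47 and 8.54 at 6 weeks and 8.26, 8.43 and 10.05 at 12 weeks. Under jak1i Ifit2 read 8.76, 7.86 and 8.90 at 0 weeks, 7.28, 7.39 and 7.72 at 6 weeks, 7.59, 7.17 and 7.30 at 12 weeks and 8.14 and 7.61 at 24 weeks. Under jak3i Ifit2 read 9.06, 8.77 and 8.69, then 7.16, 7.75 and 7.85, then 7.82, 8.18 and 9.31 and last 8.65 and 7.93 at the same times. PBS replicate 3 at 12 weeks, at 10.05, stood apart as the highest of the 31 arrays for Ifit2, and at 6 weeks the groups overlapped. Ifit2 passed only in jak1i at 12 weeks (−1.56 ± 0.41, adjusted p = 0.0176), and there the adjusted p was 0.146 without that PBS array. Its difference was −0.47 in jak3i at 12 weeks and 0.09 without PBS replicate 3. Ifit3, next to Ifit2 in the genome, likewise passed only in jak1i at 12 weeks (−1.54 ± 0.46, adjusted p = 0.0297) and was −0.32 in jak3i.

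**Figure D3:**
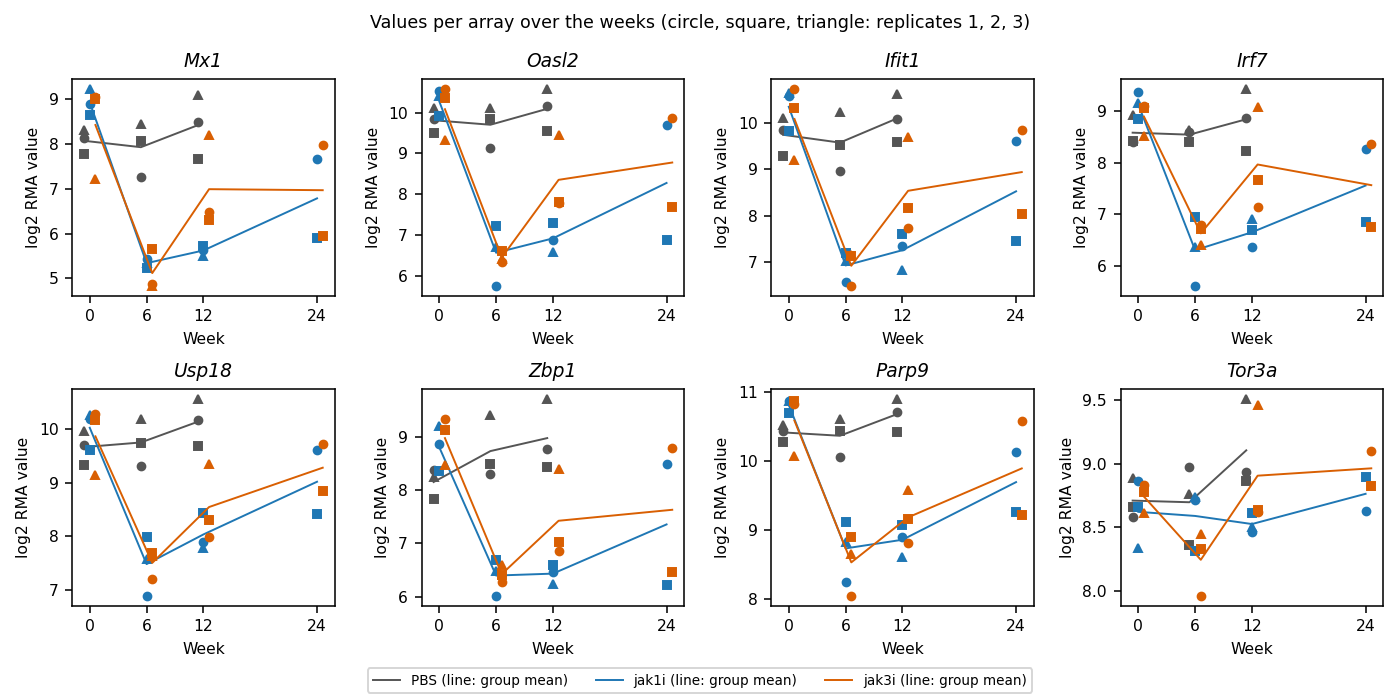
Log2 RMA values of 8 members against the week of sampling, 1 point per array, with the arms set up to 0.6 weeks apart sideways so that points stay visible and lines through the group means (3 arrays, or 2 at 24 weeks). Mx1 under jak1i reads 5.50 to 5.73 at 12 weeks and 7.66 and 5.91 at 24 weeks, while Tor3a stays between 7.96 and 9.51 throughout.

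Of the 7 effectors, Mx1, Mx2, Rsad2, Cmpk2, Bst2, Isg20 and Samd9l, 2 were lower in jak1i and 3 in jak3i at 6 weeks, and 5 in jak1i and 2 in jak3i at 12 weeks. Mx1 encodes a dynamin-like GTPase that blocks influenza virus replication. Mx1 in PBS skin read 8.14, 7.78 and 8.30 at 0 weeks, 7.26, 8.07 and 8.46 at 6 weeks and 8.50, 7.66 and 9.10 at 12 weeks. Under jak1i Mx1 read 8.90, 8.65 and 9.24 at 0 weeks, 5.44, 5.24 and 5.34 at 6 weeks, 5.64, 5.73 and 5.50 at 12 weeks and 7.66 and 5.91 at 24 weeks. Under jak3i Mx1 read 9.06, 9.0 and 7.22, then 4.87, 5.65 and 4.83, then 6.47, 6.29 and 8.21 and last 7.99 and 5.95 at the same times. All 6 jak1i arrays at 6 and 12 weeks read under 6, against at least 7.26 in PBS, and the 6-week jak3i arrays did so too. At 12 weeks jak3i replicate 3 read 8.21 beside 6.47 and 6.29. Mx1 fell by −2.59 ± 0.56, adjusted p = 0.0238 and −2.80 ± 0.56, adjusted p = 0.00392 in jak1i and by −2.81 ± 0.56, adjusted p = 0.00997 in jak3i at 6 weeks. The 12-week jak3i difference was −1.43 ± 0.56, adjusted p = 0.0795. Without replicate 3, the highest of its group, the difference was −2.04 with an adjusted p of 0.0245. Isg20, an exonuclease that degrades single-stranded RNA, moved least of the effectors. Isg20 in PBS skin read 7.39, 7.30 and 7.73 at 0 weeks, 7.60, 6.94 and 7.38 at 6 weeks and 7.63, 7.45 and 8.19 at 12 weeks. Under jak1i Isg20 read 7.73, 7.74 and 7.47 at 0 weeks, 6.61, 7.06 and 7.06 at 6 weeks, 6.84, 6.85 and 6.86 at 12 weeks and 7.32 and 7.14 at 24 weeks. Under jak3i Isg20 read 7.46, 7.79 and 7.48, then 6.33, 7.0 and 7.39, then 7.09, 7.57 and 7.77 and last 7.64 and 7.09 at the same times. The 12-week jak1i arrays lay clear of PBS, and the other inhibitor groups at 6 and 12 weeks overlapped the PBS arrays of their week. Isg20 passed there (−0.91 ± 0.24, adjusted p = 0.0169) and had an adjusted p of 0.125 without PBS 12-week replicate 3.

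Bst2, or tetherin, which holds budding virions on the cell surface, was lower in each comparison with PBS, by −1.91 and −2.51 in jak1i and −1.79 and −1.55 in jak3i at 6 and 12 weeks. Samd9l, which inhibits poxvirus replication, was lower at 12 weeks in jak1i (−1.30) and at both times in jak3i (−1.13 and −0.80). Mx2, the other Mx GTPase, passed only in jak1i at 12 weeks (−0.86). Rsad2, or viperin, makes a chain-terminating nucleotide from CTP, and its neighbour Cmpk2 supplies nucleoside triphosphates to the same reaction. Rsad2 differed from PBS by −1.24 ± 0.50, adjusted p = 0.208 and −1.36 ± 0.50, adjusted p = 0.0733 in jak1i and by −0.87 ± 0.50, adjusted p = 0.394 and −0.29 ± 0.50, adjusted p = 0.72 in jak3i, and it passed in none. Replicate 3 of jak3i at 12 weeks held the highest Rsad2 value of all 31 arrays, 10.51. Cmpk2 was −0.57 ± 0.44, adjusted p = 0.515 and −1.0 ± 0.44, adjusted p = 0.126 in jak1i, −0.65 in jak3i at 6 weeks and 0.0002 ± 0.44, adjusted p = 1 at 12 weeks.

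Herc6, Trim25, Trim30a and Dtx3l act in ubiquitin and Isg15 conjugation. Of these 4, 2 were lower in jak1i and 3 in jak3i at 6 weeks, and 4 in jak1i and 3 in jak3i at 12 weeks. Herc6 is the main ligase for Isg15 in the mouse. Herc6 in PBS skin read 8.44, 8.27 and 8.76 at 0 weeks, 7.83, 8.11 and 9.06 at 6 weeks and 8.66, 8.40 and 9.07 at 12 weeks. Under jak1i Herc6 read 9.12, 8.39 and 9.13 at 0 weeks, 6.20, 6.65 and 6.81 at 6 weeks, 6.79, 6.85 and 6.05 at 12 weeks and 8.14 and 6.63 at 24 weeks. Under jak3i Herc6 read 9.23, 8.98 and 8.05, then 5.38, 6.66 and 6.66, then 6.50, 7.25 and 7.72 and last 8.60 and 6.72 at the same times. The inhibitor arrays at 6 and 12 weeks lay below the PBS arrays of their week without overlap. Herc6 was −1.78 ± 0.48, adjusted p = 0.065 from PBS in jak1i at 6 weeks, which did not pass, and fell by −2.14 ± 0.48, adjusted p = 0.0071 at 12 weeks. Under jak3i it fell by −2.10 ± 0.48, adjusted p = 0.0248 and −1.55 ± 0.48, adjusted p = 0.0304. Trim25, the ligase that activates the RNA sensor RIG-I, changed by smaller amounts with small errors. Trim25 in PBS skin read 10.67, 10.50 and 10.92 at 0 weeks, 10.80, 10.66 and 10.79 at 6 weeks and 11.32, 11.004 and 11.08 at 12 weeks. Under jak1i Trim25 read 10.98, 10.99 and 10.99 at 0 weeks, 9.85, 9.79 and 10.07 at 6 weeks, 10.18, 10.24 and 10.03 at 12 weeks and 10.57 and 10.55 at 24 weeks. Under jak3i Trim25 read 10.97, 10.98 and 10.78, then 9.35, 10.11 and 10.09, then 10.54, 10.34 and 10.93 and last 10.71 and 10.31 at the same times. No inhibitor array at 6 or 12 weeks reached the PBS arrays of its week. Trim25 fell by −0.85 ± 0.17, adjusted p = 0.0143 and −0.99 ± 0.17, adjusted p = 0.00127 in jak1i and by −0.90 ± 0.17, adjusted p = 0.00673 and −0.53 ± 0.17, adjusted p = 0.0332 in jak3i. Dtx3l, a ligase that works with Parp9, was lower in each comparison, by −1.41 and −1.42 in jak1i and −1.64 and −1.22 in jak3i. Trim30a, which restrains inflammatory signalling, passed only in jak1i at 12 weeks (−1.67).

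All 3 PARP genes, Parp9, Parp12 and Parp14, whose products attach or bind ADP-ribose, were lower in each of these comparisons. Parp9 in PBS skin read 10.43, 10.28 and 10.53 at 0 weeks, 10.05, 10.44 and 10.61 at 6 weeks and 10.71, 10.43 and 10.90 at 12 weeks. Under jak1i Parp9 read 10.87, 10.70 and 10.88 at 0 weeks, 8.25, 9.13 and 8.83 at 6 weeks, 8.90, 9.08 and 8.61 at 12 weeks and 10.13 and 9.27 at 24 weeks. Under jak3i Parp9 read 10.82, 10.86 and 10.07, then 8.05, 8.90 and 8.66, then 8.81, 9.16 and 9.59 and last 10.58 and 9.21 at the same times. The 6- and 12-week arrays of both inhibitors all lay below the lowest PBS array of Parp9, 10.05. Parp9 fell by −1.63 ± 0.31, adjusted p = 0.0112 and −1.82 ± 0.31, adjusted p = 0.00138 in jak1i and by −1.83 ± 0.31, adjusted p = 0.00407 and −1.49 ± 0.31, adjusted p = 0.0048 in jak3i. Parp12 in PBS skin read 10.48, 10.34 and 10.60 at 0 weeks, 10.25, 10.45 and 10.93 at 6 weeks and 10.60, 10.51 and 11.24 at 12 weeks. Under jak1i Parp12 read 10.95, 10.32 and 11.15 at 0 weeks, 8.72, 9.28 and 9.16 at 6 weeks, 9.30, 9.32 and 9.18 at 12 weeks and 10.58 and 9.58 at 24 weeks. Under jak3i Parp12 read 11.08, 11.05 and 10.41, then 8.58, 9.32 and 9.18, then 9.39, 9.54 and 10.09 and last 10.53 and 9.76 at the same times. In Parp12 jak3i replicate 3 at 12 weeks, at 10.09, came nearest to PBS but did not reach its lowest array of that week. The falls of Parp12 were −1.49 ± 0.29, adjusted p = 0.0139 and −1.51 ± 0.29, adjusted p = 0.00329 in jak1i and −1.52 ± 0.29, adjusted p = 0.00787 and −1.11 ± 0.29, adjusted p = 0.0151 in jak3i. Parp14 fell by 1.67 and 1.75 in jak1i and by 1.81 and 1.30 in jak3i on the log2 scale.

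Of the other 5 measured members, Rtp4, Xaf1, Ifi35, Lgals3bp and Tor3a, 4 were lower in jak1i and 3 in jak3i at 6 weeks, and 4 and 2 at 12 weeks. Rtp4 encodes a receptor transporter that also binds viral RNA. Rtp4 in PBS skin read 11.26, 11.03 and 11.54 at 0 weeks, 11.05, 11.17 and 11.59 at 6 weeks and 11.55, 11.26 and 11.77 at 12 weeks. Under jak1i Rtp4 read 11.65, 11.39 and 11.65 at 0 weeks, 7.94, 9.40 and 8.86 at 6 weeks, 9.02, 9.23 and 8.63 at 12 weeks and 11.21 and 9.17 at 24 weeks. Under jak3i Rtp4 read 11.59, 11.80 and 11.24, then 8.13, 9.18 and 9.09, then 9.22, 9.81 and 10.62 and last 11.43 and 9.65 at the same times. PBS arrays of Rtp4 lay between 11.03 and 11.77 at all times, and the highest inhibitor array at 6 or 12 weeks was jak3i replicate 3 at 12 weeks, at 10.62. Rtp4 fell by −2.54 ± 0.47, adjusted p = 0.00976 and −2.57 ± 0.47, adjusted p = 0.00216 in jak1i and by −2.47 ± 0.47, adjusted p = 0.00673 and −1.64 ± 0.47, adjusted p = 0.0214 in jak3i. Tor3a in PBS skin read 8.58, 8.66 and 8.89 at 0 weeks, 8.97, 8.36 and 8.76 at 6 weeks and 8.94, 8.87 and 9.51 at 12 weeks. Under jak1i Tor3a read 8.86, 8.66 and 8.34 at 0 weeks, 8.72, 8.32 and 8.74 at 6 weeks, 8.47, 8.61 and 8.50 at 12 weeks and 8.63 and 8.90 at 24 weeks. Under jak3i Tor3a read 8.83, 8.78 and 8.61, then 7.96, 8.33 and 8.45, then 8.62, 8.64 and 9.46 and last 9.10 and 8.83 at the same times. Tor3a did not pass in any comparison with PBS, and its 6-week jak1i arrays overlapped the PBS arrays. Its other 2 probe sets showed larger differences, −1.13 and −0.81 in jak1i at 12 weeks, against −0.58 for the probe set used. Xaf1, a promoter of cell death, was lower in each comparison, by −1.73 and −1.96 in jak1i and −2.06 and −1.42 in jak3i. Ifi35, an inflammatory regulator that pairs with Nmi, was lower at 6 weeks in jak1i (−1.08) and jak3i (−1.03) and at 12 weeks in jak1i (−0.99), with −0.67 and an adjusted p of 0.0534 in jak3i. Lgals3bp, a secreted scavenger protein, was lower in jak1i at 6 weeks (−1.41) and at 12 weeks (−1.71).

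Over all 14 members with more than 1 probe set, the 22 other probe sets gave 88 differences from PBS in these comparisons, of which 85 had the sign of the probe set used. The 3 of opposite sign were 1 of Cmpk2, where the probe set used was at 0.0002, and 2 of a Dhx58 probe set whose group means there were 4.25 to 4.58.

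Skin treated with jak1i and jak3i was compared directly at 6, 12 and 24 weeks, 3 comparisons adjusted separately over all genes. No member passed in any of them, and 0% of all genes were called. At 6 weeks the members lay close together, with a median of 0.06 for jak1i minus jak3i, a range from −0.40 to 0.35 and 0 members at an unadjusted p under 0.05. At 12 weeks all 34 fitted differences were below 0, against 50.6% of all genes, with a median of −0.78, and 16 had an unadjusted p under 0.05. The smallest adjusted p was 0.554, that of Lgals3bp (−1.17 ± 0.33, adjusted p = 0.554, 95% interval −1.85 to −0.49). The medians by role were −1.22 for the IFIT genes, −1.04 for the OAS genes, −0.96 for the effectors and −0.40 for the PARP genes. Irf9 differed by −0.03 ± 0.23, adjusted p = 0.998 with an interval from −0.51 to 0.44, whereas Oasl2 differed by −1.44 ± 0.60, adjusted p = 0.789 with an interval from −2.67 to −0.20. In the same comparison the 24 genes of the interferon-γ response had −0.13 as their median, with 0 genes at an unadjusted p under 0.05. Replicate 3 of jak3i was the highest of its group in every member. Without it the 12-week median of the members was −0.39, 31 of 34 differences were below 0 and 1 had an unadjusted p under 0.05.

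**Figure D4:**
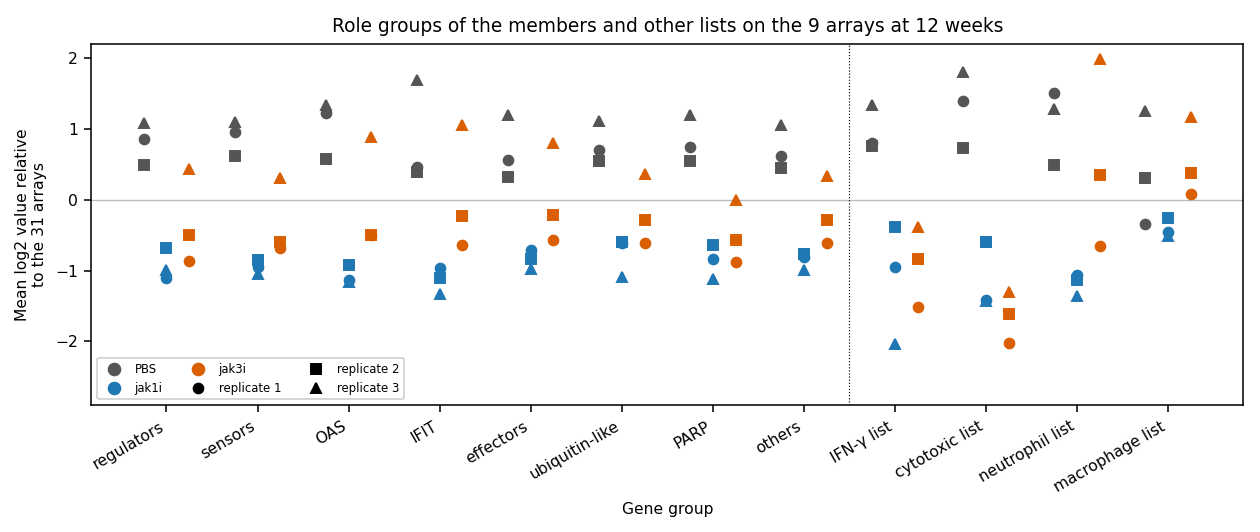
Mean of the members of each role in each array at 12 weeks, as log2 difference from the mean of the 31 arrays, for PBS, jak1i and jak3i (3 arrays each, 1 point per array), with other gene lists right of the dotted line. Replicate 3 of jak3i is above the other jak3i replicates in every role.

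That array stood apart within its group. Replicate 3 of jak3i at 12 weeks had the highest value of its group in 34 of 34 members, and 17 members there reached or exceeded the lowest PBS array of the same week, against 1 and 3 members in replicates 1 and 2. Its excess over the mean of the other replicates had a median of 1.03, from 0.44 in Isg20 to 2.28 in Rsad2. By role the median excess was 1.40 in the OAS genes, 1.39 in the IFIT genes and 0.63 in the PARP genes. As list means relative to the 31 arrays, the members stood at 0.55 in this array and at −0.64 and −0.38 in the other replicates. The neutrophil list (S100a8, S100a9, Lcn2, Csf3r, Cxcr2 and Fpr2) stood at 1.98 and the macrophage list at 1.17 there, the highest of their groups. The cytotoxic lymphocyte list stood at −1.30, below the 31-array mean but also the highest of its group. The interferon-γ response list stood at −0.38, and its values in the other replicates are not given here. The part of neutrophils and macrophages in the members' values was not tested. Leaving out the array that was highest in every member lowers each jak3i mean by construction. Results without it, here and above, are therefore no independent test of the jak3i fall. Without this array 25 members were lower in jak3i than in PBS at 12 weeks, with a median of −1.28 and 5.94% of all genes lower. Against the start of the arm 22 were lower, with a median of −1.27 and 2.52% of all genes lower.

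At 24 weeks, with 2 arrays an arm, 0 members passed against the start of the arm in jak1i (25 at an unadjusted p under 0.05, smallest adjusted p 0.0563, 0.154% of all genes lower) and 0 in jak3i (13 at an unadjusted p under 0.05, smallest adjusted p 0.108, 0.0165% of all genes lower). The medians were −1.06 and −0.70, with 33 of 34 differences below 0 in each, against 50.3% and 42.6% of all genes. Leaving out jak1i 24-week replicate 1 gave 14 members, and leaving out jak3i 24-week replicate 1 gave 1. The arrays of each pair differed widely. Replicate 1 exceeded replicate 2 in 33 of 34 members in jak1i, by a median of 1.05, and in 34 of 34 in jak3i, by a median of 1.14. Mx1, for example, read 7.66 and 5.91 in jak1i and 7.99 and 5.95 in jak3i. Replicate 1 reached the lowest array of its own start in 11 members in jak1i and 24 in jak3i, and replicate 2 in 2 and 1. The hair shaft list differed within the pairs as well, at 0.78 and −3.44 in jak1i and 0.25 and −2.89 in jak3i, and its part was not tested. Between the compounds at 24 weeks the median was −0.20, with 0 members at an unadjusted p under 0.05. The arrays used here include none of PBS at 24 weeks, so the 24-week results have no control of the same week.

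Across the 31 arrays the members' extremes fell in few arrays. Replicate 1 of jak3i at 6 weeks held the lowest value of 22 members and replicate 1 of jak1i at 6 weeks that of 10, and replicate 3 of PBS at 12 weeks held the highest of 16. Oasl2 had the widest span, 4.83 units, followed by Mx1 with 4.40 and Ifit1 with 4.25, while Tor3a spanned 1.55 and Mx2 1.60. Ifi35 had the highest mean level, 11.6, and Oas3 the lowest, 6.31, although levels of different probe sets do not rank transcripts.

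**Figure D5:**
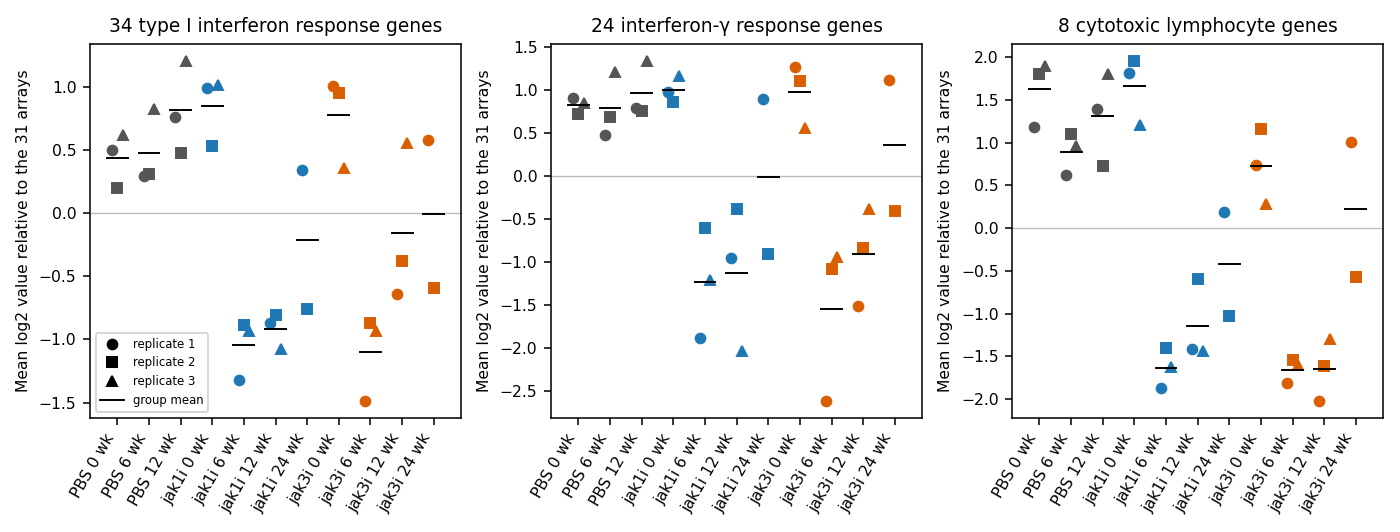
Mean of a gene list in each of the 31 arrays, as log2 difference from the mean of the 31 arrays, for the members, 24 interferon-γ response genes and 8 cytotoxic lymphocyte genes, by arm and week, with group means as bars. The members range from 0.48 to 1.21 in PBS at 12 weeks, from −1.07 to −0.81 in jak1i and from −0.64 to 0.55 in jak3i at that week.

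The other genes of the pathway were taken from lists that, like the members, were chosen with earlier results of these data known. Their differences stand on the same scale as those of the members. Beside the counts below, 1.22% of all genes were called lower than PBS in jak1i and 1.5% in jak3i at 6 weeks, and 6.51% and 7.28% at 12 weeks. The 9 measured interferon genes, Ifna1, Ifna2, Ifna4, Ifna5, Ifna9, Ifna11, Ifnab, Ifnb1 and Ifnz, had 0 called in the comparisons of either inhibitor with PBS at 6 and 12 weeks, and at most 1 at an unadjusted p under 0.05. Ifnb1, the gene of interferon-β, had a mean over the 31 arrays of 5.12 with a range from 4.71 to 5.43, and the median mean of the 9 genes was also 5.12. The median of all values was 6.18, and Ifnz alone of the 9 had a mean above it, 8.49. Of the receptor chains and their signalling proteins, Ifnar1, Ifnar2, Jak1 and Tyk2 did not pass, and Stat2, an ISGF3 subunit, was lower throughout. Stat2 differed from PBS by −1.90 and −1.68 in jak1i and by −1.77 and −1.55 in jak3i at 6 and 12 weeks. Of 14 genes of nucleic acid sensing and signalling upstream of interferon, 1 was lower in jak1i and 2 in jak3i at 6 weeks. At 12 weeks 7 were lower in jak1i, among them Sting1, the adaptor of cytosolic DNA sensing (−1.43), Ddx58, which encodes RIG-I (−1.12), and the RNA receptor gene Tlr3 (−0.88). In jak3i 3 were lower, Ddx58 (−0.64), Irf5 (−0.69) and the kinase gene Tbk1 (−0.27). None of 4 feedback inhibitors passed in the comparisons with PBS. Against the start of the arm at 6 weeks, Socs1 was lower in jak1i (−1.03) and Socs3 in jak3i (−1.19), with 6.43% and 2.05% of all genes lower. The other arm had similar differences that did not pass. Socs1 was at −1.04 in jak3i (adjusted p = 0.0664) and Socs3 at −0.82 in jak1i (adjusted p = 0.0778). In jak1i minus jak3i at 6 weeks they were at 0.08 and −0.05, and neither passed.

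A further list of 45 interferon-induced genes outside the members had 11 lower in jak1i and 15 in jak3i at 6 weeks, and 25 and 12 lower at 12 weeks, with medians of −0.55, −0.50, −0.73 and −0.33. At 12 weeks they included Ddx60, a helicase related to viral RNA sensing, at −2.31 in jak1i and −1.36 in jak3i, and the growth regulator Slfn2 at −2.32 and −1.34. Ifitm2, an inhibitor of viral entry, was the single gene of the list called higher, at 0.50 in jak3i at 12 weeks. Of 24 genes of the interferon-γ response, 8 were lower in jak1i and 16 in jak3i at 6 weeks, and 19 and 16 at 12 weeks, with medians of −1.97, −2.11, −1.86 and −1.48. The chemokine gene Cxcl9, which attracts activated T cells, was −4.02 from PBS in jak1i and −4.27 in jak3i at 12 weeks, and Irf1, a transcription factor that answers interferon-γ, was −1.58 and −1.45.

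Some markers of immune cells were called in the same comparisons. Of all genes, 1.22% were called lower than PBS in jak1i and 1.5% in jak3i at 6 weeks, and 6.51% and 7.28% at 12 weeks. In either direction, 2431 of 18193 genes were called in jak1i and 3148 in jak3i at 12 weeks. Of 8 cytotoxic lymphocyte genes, 7 were lower in each arm at 6 weeks, and 7 in jak1i and 8 in jak3i at 12 weeks. Of 7 T cell genes, 5 were lower in each arm at 6 weeks, and 4 and 6 at 12 weeks. The mean of the cytotoxic list ranged from 0.62 to 1.80 in PBS at 6 and 12 weeks, from −1.87 to −0.59 in jak1i and from −2.02 to −1.30 in jak3i at those times. The 9 macrophage genes had 0 called at 6 weeks in either arm, and at 12 weeks 3 lower and 1 higher in jak1i and 1 higher in jak3i. Of 6 neutrophil genes 4 were lower in jak1i at 12 weeks and 0 in the other 3 comparisons. The list for plasmacytoid dendritic cells, which are strong producers of interferon-α, held Siglech, Tcf4, Ccr9, Ly6d, Pacsin1, Klk1, Lag3 and Il3ra. Of these 8 genes, 3 were lower in jak1i and 1 lower and 1 higher in jak3i at 12 weeks, and 0 passed at 6 weeks. Given the calls over all genes, the few jak3i calls in the macrophage and plasmacytoid dendritic cell lists are not read as a change in those cells. Siglech, the marker most particular to plasmacytoid dendritic cells, had a mean of 6.35. Ly6d and Tcf4 had means of 12.89 and 10.60, and in whole skin this list cannot be read as a measure of those cells alone. The part of these cell types in the members' fall was not tested.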

How the data were processed

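RMA was run by the authors, per the submitters' processing notes, and the deposited table holds log2 values of 45101 probe sets on 31 arrays, from 2.59 to 14.69 with array medians from 6.05 to 6.24. The RMA version and the genome build are not given in the sources used here. RMA equalises the distributions of the arrays, so a shift of all genes together cannot be seen. Arrays have no read depth, and the 2 or 3 arrays a group limit the precision.

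Probe sets were used where their table entry held a single symbol (34958 probe sets, with 932 holding several and 9211 none), and 34741 matched the reference gene table by Entrez identifier. Per gene the probe set with the highest mean was used. With limma 3.58.1 in R 4.3.3, 1 model of 11 group means (20 residual degrees of freedom) was fitted to all 18193 genes, with 21 contrasts and Benjamini-Hochberg adjustment within each. The script was tested on simulated data.

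Values of every array are printed for the member with the largest and the smallest mean absolute difference from PBS in each role, plus Mx1, Irf7, Oasl2 and Ifit1. The members, roles, gene lists and settings were chosen with earlier results of these data known. The replicate numbers of the titles were checked for pairing by correlating deviations from the group means. Promoters were matched by gene symbol in RefSeq windows of GRCm38.p6. Other settings were centring, a filter on dim genes, the mean of the probe sets, a trended and robust variance, the compared arrays alone, replicate blocks, PBS at 6 weeks as control and leaving out each array.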

Additional observations from a re-analysis of the deposited data

Results flagged for a closer look

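The change within an inhibitor arm minus the change within the PBS arm was called for some members, which marks a difference between arms under the same span of time. It was called in 27 members for jak1i from 0 to 12 weeks, against 3.86% of all genes called lower. For jak3i from 0 to 12 weeks it was called in 3 (Parp9, Parp12 and Ifih1), against 1.96%. For jak1i from 0 to 6 weeks it was called in 1 (Dhx58), against 0.11%. When 1 array was left out, these counts went down to 9, 0 and 0. Among the members called for jak1i at 12 weeks, Trim25, the ligase that activates RIG-I, had −1.28 ± 0.24, with an adjusted p of 0.0117 from limma. Mx1 had −3.65 ± 0.80 with an adjusted p of 0.0141 there. Parp9 had −1.66 ± 0.44 for jak3i at 12 weeks, with an adjusted p of 0.0392. The difference between jak1i and jak3i in these changes was not tested. At 0 weeks the members' medians lay 0.37 (jak1i) and 0.33 (jak3i) above PBS. The change within PBS to 12 weeks had a median of 0.35. No member passed in those comparisons, but both offsets add to the size of the 12-week differences.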

How the results depend on the processing

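No count of called members changed sign, and single arrays moved them more than scaling did. With PBS at 6 weeks as control the 12-week counts were 1 for jak1i and 3 for jak3i. With the compared arrays fitted alone the counts against PBS were 2 (jak1i) and 4 (jak3i) at 6 weeks and 10 (jak3i) at 12 weeks, those against the start were 9 and 8 for jak3i at 6 and 12 weeks, and the changes beyond PBS were 22 for jak1i at 6 weeks and 8 and 11 for jak3i at 6 and 12 weeks. The change of jak1i at 6 weeks beyond PBS was called in 0 members with the random block or centring, 8 without dim genes and 4 with the mean of the probe sets. That of jak3i at 12 weeks was called in 1 with the random block, 8 without dim genes, 6 with centring and 5 with the mean of the probe sets. Without dim genes 3 members were called for jak1i at 24 weeks against its start.

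When 1 array was left out, counts against PBS ranged from 0 to 24 (jak1i) and 7 to 25 (jak3i) at 6 weeks and from 22 to 32 and 2 to 25 at 12 weeks. Against the start they ranged from 24 to 31, 27 to 30 and 0 to 14 for jak1i at 6, 12 and 24 weeks and from 17 to 28, 0 to 22 and 0 to 1 for jak3i. Changes beyond PBS ranged from 0 to 22 and 9 to 29 for jak1i at 6 and 12 weeks and from 0 to 0 and 0 to 15 for jak3i. The cause of these moves was not tested, though a fit with fewer arrays has fewer degrees of freedom. For most of these fits the share of all genes called is not given, so a lower count need not mean smaller differences of the members.

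Signs turned in differences that had not passed. With PBS at 6 weeks as control the jak3i differences at 12 weeks were 0.25 for Ifit2, 0.17 for Isg20, 0.35 for Oasl1, 0.21 for Tor3a, 0.30 for Rsad2 and 0.0011 for Lgals3bp. When 1 array was left out, the jak3i differences at 12 weeks ranged from −0.91 to 0.092 for Ifit2 and from −0.48 to 0.0032 for Tor3a, and that of Tor3a in jak1i at 6 weeks from −0.28 to 0.029. The values above 0 came without PBS 12-week replicate 3 for Ifit2 and Tor3a, and without jak1i 6-week replicate 2 or PBS 6-week replicate 1 for Tor3a in jak1i.

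Over all groups the replicate numbers showed no clear pairing of the arrays, which does not settle if mice were sampled repeatedly. Same-number arrays of an arm correlated above 0.1 in 7 of 27 pairs, those of an inhibitor and PBS at the same week in 7 of 18, and 18 of 54 arrays correlated best with their own number. In jak3i and PBS at 12 weeks all 3 pairs were above 0.1, at 0.16, 0.20 and 0.38. With the number as a fixed replicate block the counts against PBS were 23 and 24 at 6 weeks and 31 and 18 at 12 weeks for jak1i and jak3i. That block moved no count of called members by over 1.5 times, and of the members printed by array only Oasl2 in jak3i at 12 weeks lost its call.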
